A study of Mus musculus with 84 samples.

Results

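A set of 10 imprinted genes was followed through peak lists of 4 histone marks in adipocyte nuclei from mouse epididymal fat: Mest, Peg3, Plagl1, Igf2, Cdkn1c, Grb10, Dlk1, Peg10, Sgce and Nnat. They were chosen by gene name, as 10 of 21851 protein-coding genes with a promoter window, and all 10 were found in the GENCODE annotation. A promoter window was the region within 2000 bp of any transcription start site of a coding transcript of the gene, and a peak reaching into it by 1 bp or more made the promoter marked in that library. The question put to them was which of these promoters carried which mark, how wide the marked domain was, and whether this differed between diets.

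Imprinted genes are expressed mainly from 1 of the 2 parental alleles. Which copy is silent depends on control regions whose DNA is methylated on 1 allele, often from the germ line on. This methylation is protected after fertilisation by the zinc finger protein ZFP57. At such a region the unmethylated allele can carry H3K4me3, the mark of active promoters, while H3K27me3, laid down by polycomb complexes, lies over silenced genes. H3K27ac lies at active promoters and enhancers and H3K4me1 mostly at enhancers. Several imprinted genes are known regulators of fat tissue growth, among them Dlk1, a membrane protein that restrains adipocyte differentiation, Mest, which has been tied to adipocyte size, and Grb10, an adaptor that dampens insulin receptor signalling. The peak lists hold no allele information, so all values here are for the 2 alleles together.

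The nuclei came from AdipoERCre x NuTRAP mice on a background given as C57BL/N in the methods and C576BL6 in the labels, in which tamoxifen given before the diet switches on a tag of nuclei and ribosomes in adipocytes, and in which biotin-labelled nuclei of 1 fat depot were divided among the marks. In the 12-week cohort, C mice were fed low-fat chow until 18 weeks of age and H mice high-fat diet for 12 weeks until the same age. HC mice then had 8 weeks of standard chow until 26 weeks of age, with CC_s as their chow-fed control. The 25-week cohort held HH mice, which were 31 weeks old after 25 weeks on high-fat diet, and HHC mice, which were 39 weeks old after 8 further weeks on chow, with CC_l and CCC as controls of the same ages. Per the methods, the CC_s and CCC controls were also moved from the low-fat to the standard chow for the weight-loss period. The 84 libraries made 32 groups of mark and diet, 20 with 3 libraries and 12 with 2. CC_l and CCC had 2 libraries for every mark, and so did HH for H3K4me3 and H3K27me3, H for H3K27me3 and CC_s for H3K27ac. For 4 H3K4me3 libraries of the 25-week cohort the title and the treatment field name different diets, and the title was used.

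The libraries differed in ways that touch every value below. They held between 11249 and 46397 peaks, and the share of all coding promoters marked by H3K4me3 ran from 41.7 to 66.0%. Peaks were narrower in H than in C: the median peak width was 850 to 1115 bp against 1439 to 1692 bp for H3K4me3, and 549 to 592 bp against 1242 to 1425 bp for H3K27me3. Cohort and library preparation cannot be told apart, since it is not stated whether the cohorts were prepared together. Of 7 adipocyte marker genes (among them Adipoq, Plin1 and Lep), 4 to 7 carried H3K4me3 in each of the 21 libraries, and of 3 neuronal markers 0 or 1 did. Of 6 macrophage markers, H libraries marked 0 to 6 and C libraries 2, and the part of other cells in the results was not tested.

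The promoters of the genes differ in their content of CpG, the dinucleotide whose methylation carries the imprint. The RefSeq promoter table of GRCm38.p6 held 13 start sites of 7 of the genes; Peg10, Sgce and Cdkn1c are named only. The 250 bases before 8 of these start sites are shown 5′ to 3′ on the strand of the gene, with each CpG in capitals, because the start sites of 1 gene (2 of Mest, 2 of Grb10) and the genes with a single domain (Peg3, Plagl1, Dlk1, Nnat) turned out to carry different marks.
Mest upstream start, chr6:30733256-30733505, plus strand: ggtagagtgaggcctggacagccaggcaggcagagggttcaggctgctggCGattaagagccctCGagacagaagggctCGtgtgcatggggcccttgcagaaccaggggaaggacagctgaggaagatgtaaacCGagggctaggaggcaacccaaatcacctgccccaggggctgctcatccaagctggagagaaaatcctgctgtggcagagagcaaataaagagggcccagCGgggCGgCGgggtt
Mest downstream start, chr6:30737800-30738049, plus strand: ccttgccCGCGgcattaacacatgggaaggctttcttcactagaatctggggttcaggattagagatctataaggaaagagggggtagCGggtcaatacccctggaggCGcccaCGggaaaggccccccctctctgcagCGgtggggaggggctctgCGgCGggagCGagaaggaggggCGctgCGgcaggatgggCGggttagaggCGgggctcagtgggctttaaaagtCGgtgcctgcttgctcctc
Peg3, chr7:6730420-6730669, minus strand: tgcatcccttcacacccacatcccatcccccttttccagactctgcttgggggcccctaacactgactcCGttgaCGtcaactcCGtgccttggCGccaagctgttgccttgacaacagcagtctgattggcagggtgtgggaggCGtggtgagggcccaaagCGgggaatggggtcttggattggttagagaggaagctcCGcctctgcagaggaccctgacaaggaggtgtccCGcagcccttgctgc
Plagl1, chr10:13090582-13090831, plus strand: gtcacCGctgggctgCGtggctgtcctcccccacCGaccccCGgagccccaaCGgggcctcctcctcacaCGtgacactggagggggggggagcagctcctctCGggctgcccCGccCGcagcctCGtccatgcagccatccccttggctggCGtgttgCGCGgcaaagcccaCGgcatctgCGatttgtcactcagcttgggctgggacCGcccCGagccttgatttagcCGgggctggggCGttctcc
Grb10 first start, chr11:12037421-12037670, minus strand: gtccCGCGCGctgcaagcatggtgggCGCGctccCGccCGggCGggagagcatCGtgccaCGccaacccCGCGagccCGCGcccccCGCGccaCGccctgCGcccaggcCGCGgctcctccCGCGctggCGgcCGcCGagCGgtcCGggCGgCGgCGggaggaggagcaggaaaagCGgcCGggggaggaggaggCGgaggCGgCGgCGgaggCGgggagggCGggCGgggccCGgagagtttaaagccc
Grb10 second start, chr11:12027972-12028221, minus strand: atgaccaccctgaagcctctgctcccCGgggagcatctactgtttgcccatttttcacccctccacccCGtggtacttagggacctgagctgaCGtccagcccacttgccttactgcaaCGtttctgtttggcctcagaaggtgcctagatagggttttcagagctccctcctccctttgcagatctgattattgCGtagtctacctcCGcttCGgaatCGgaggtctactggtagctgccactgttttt
Dlk1, chr12:109452573-109452822, plus strand: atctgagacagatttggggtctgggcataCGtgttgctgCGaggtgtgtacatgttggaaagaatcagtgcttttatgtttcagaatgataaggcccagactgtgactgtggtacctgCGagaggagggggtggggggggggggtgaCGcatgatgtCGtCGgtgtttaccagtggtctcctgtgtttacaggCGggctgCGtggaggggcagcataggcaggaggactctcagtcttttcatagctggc
Nnat, chr2:157559828-157560077, plus strand: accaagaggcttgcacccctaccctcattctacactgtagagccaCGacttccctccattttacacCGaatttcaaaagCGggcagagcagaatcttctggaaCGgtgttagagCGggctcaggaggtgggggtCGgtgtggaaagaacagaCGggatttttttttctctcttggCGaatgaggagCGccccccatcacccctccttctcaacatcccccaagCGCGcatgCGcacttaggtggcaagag

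The Grb10 first start had 40 CpGs in these 250 bases, at the 98.8 percentile of 32851 promoter sequences of the table, against 8 at its second start. The Plagl1 sequence held 19 and the Mest downstream start 14, where the Mest upstream start held 7. The median over all sequences was 6. The hexamer TGCCGC, read on either strand, is the sequence that ZFP57 binds when its CpG is methylated. It occurred 2 times before the Mest downstream start and 1 time before the Plagl1 start, and it was not found in the other 6 sequences shown. Over all sequences of the table, 8.68% held it at least once, so the match is a description of these letters and not a binding site.

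Taken over both cohorts, the 10 promoters fell into a group marked by H3K4me3, a group marked by H3K27me3 and a gene with both. Peg3, Peg10 and Sgce carried H3K4me3 in 21 of 21 libraries. Peg3 (chr7:6703892-6730421) encodes a zinc finger protein, and its window overlaps that of its imprinted neighbour Usp29, which was also marked in 21 of 21. Peg10 (chr6:4747306-4760517), derived from a retrotransposon, and Sgce (chr6:4674350-4747207), the membrane glycoprotein epsilon-sarcoglycan, start back to back and share most of their window, so their values are not independent.

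H3K4me3 was present at Mest (chr6:30733506-30748465) and at Nnat (chr2:157560078-157562522) in 17 of 21 libraries each. Nnat encodes the membrane proteolipid neuronatin and starts inside Blcap, another imprinted gene. At Grb10 (chr11:11930508-12037401) 16 of 21 libraries were marked. Cdkn1c (chr7:143458339-143461050), an inhibitor of cyclin-dependent kinases, was marked in 15 of 21. Plagl1 (chr10:13090788-13131694), a zinc finger transcription factor, was marked in 14 of 21.

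Dlk1 (chr12:109452849-109463336) carried H3K4me3 in 0 of 21 libraries. Igf2 (chr7:142650766-142666816), an insulin-like growth factor, carried it in 2 of 21, C replicate 2 and HHC replicate 3. These 2 genes and Grb10 were the ones with H3K27me3 in 20 of 20 libraries. H3K27me3 was rarer at the H3K4me3 group: Nnat and Sgce had it in 0 of 20 libraries, Peg10 in 1, Cdkn1c in 2, Plagl1 in 4 and Mest in 7 (in 1 of these by 5 bp). Peg3 had it in 10 of 20, which were 3 of 11 libraries of the 12-week and 7 of 9 of the 25-week cohort. A missing peak means that the promoter was not among the top 1% of signal blocks of that library, not that the mark was shown to be absent.

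**Figure D1:**
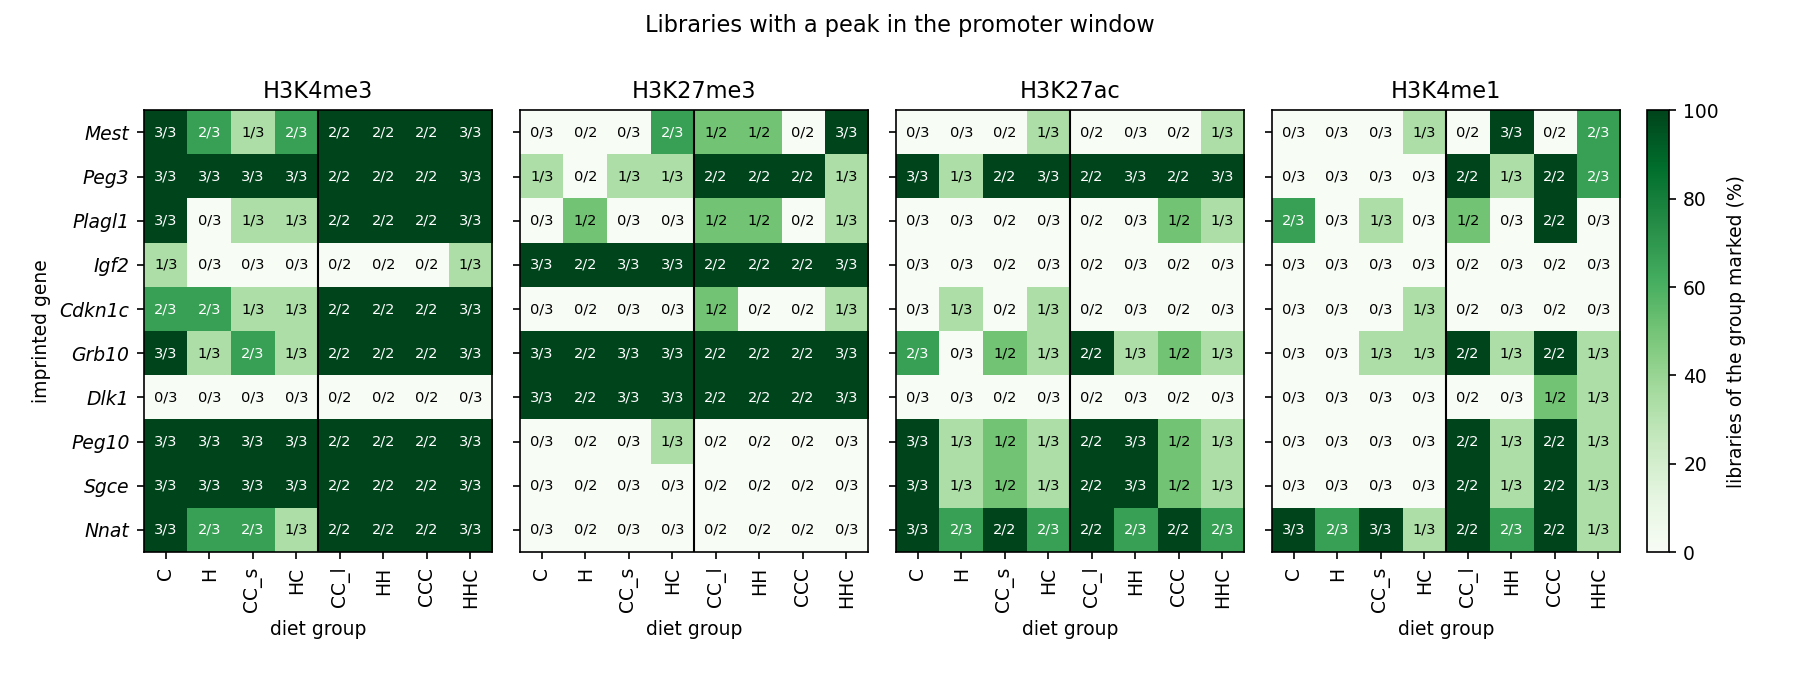
Number of libraries with a peak in the promoter window over the number of libraries, for the 10 imprinted genes (rows) and 8 diet groups (columns), in 1 panel per mark; the colour gives the percent of libraries marked and the vertical line parts the 12-week from the 25-week cohort. Dlk1 and Igf2 are filled only under H3K27me3 apart from 2 Igf2 libraries under H3K4me3 and 2 Dlk1 libraries under H3K4me1, and Plagl1 is marked in 0 of 3 H libraries under H3K4me3.

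Set beside all coding promoters, a library marked 6.86 ± 1.80 of the 10 promoters with H3K4me3 (SD, n = 21), against 57.7% ± 6.69 of all. H3K27me3 marked 4.20 ± 1.11 of the 10 (SD, n = 20) against 18.4% ± 4.48 of all. For H3K27ac the values were 3.67 ± 1.46 of 10 (SD, n = 21) and 40.7% ± 11.5, and for H3K4me1 2.64 ± 1.94 of 10 (SD, n = 22) and 24.0% ± 13.8. All marks were found at more of the promoters in the 25-week than in the 12-week cohort, with a mean of 8.11 against 5.92 for H3K4me3 and 4.20 against 1.33 for H3K4me1, while the share of all coding promoters moved with them, from 53.3 to 63.6% and from 12.6 to 37.7%.

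The acetyl mark followed only some of the H3K4me3 promoters. Peg3 carried H3K27ac in 19 of 21 libraries and Nnat in 17, while Peg10 and Sgce had it in 13 and Grb10 in 9. Mest, Plagl1 and Cdkn1c had it in 2 of 21 libraries each, although 14 to 17 libraries carried H3K4me3 there. Igf2 and Dlk1 had it in 0 of 21. H3K4me1 was found most often at Nnat, in 16 of 22 libraries, and in 8 or fewer at each of the other promoters.

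Marked domains differed in width. The H3K4me3 peak at Nnat was 7.03 kb wide at the median over the 17 marked libraries and 12.6 kb at its widest, and its total signal was at the 98.8 percentile of all peaks of its library at the median. The H3K27ac peak there reached 22.9 kb. The start of Blcap lies 6.26 kb downstream of that of Nnat and was under an H3K4me3 peak in 21 of 21 libraries, where the Nnat start itself was in 13, and a single peak covered the 2 starts in 5. The wide Nnat domain can therefore hold signal of the Blcap promoter.

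Among the other H3K4me3 promoters, the median widest peak was 3.45 kb at Peg10 and Sgce, 3.17 kb at Peg3, 2.26 kb at Mest, 2.20 kb at Plagl1, 1.94 kb at Grb10 and 0.897 kb at Cdkn1c. H3K27me3 domains were wider than these at Igf2 and Dlk1 only. The median was 4.91 kb and the maximum 15.0 kb at Igf2, and the median was 4.68 kb and the maximum 18.1 kb at Dlk1. At the other promoters with H3K27me3, Grb10 among them, the median width was below the 3.45 kb of H3K4me3 at Peg10 and Sgce. The signal of the Igf2 and Dlk1 H3K27me3 peaks was high within their libraries, at the 97.6 percentile for Igf2 and the 95.1 percentile for Dlk1 at the median.

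Start sites of 1 gene carried different marks. Mest has an upstream start at position 30733506 and a downstream start at 30738050, and H3K4me3 lay within 2000 bp of the downstream start in 17 of 21 libraries but of the upstream start in 2. The downstream start is the one with more CpGs and with the 2 hexamers in the sequences shown above. Of the 3 start sites of Grb10, the first (12037401) had H3K4me3 within 2000 bp in 16 of 21 and H3K27me3 in all 20 libraries, and the second (12027971) H3K4me3 in 7 and H3K27me3 in 18. The third (11970642) had 1 marked library for each of these marks, but H3K27ac in 9 of 21. All 4 groups of Igf2 start sites carried H3K27me3, in 19 or 20 of 20 libraries.

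**Figure D2:**
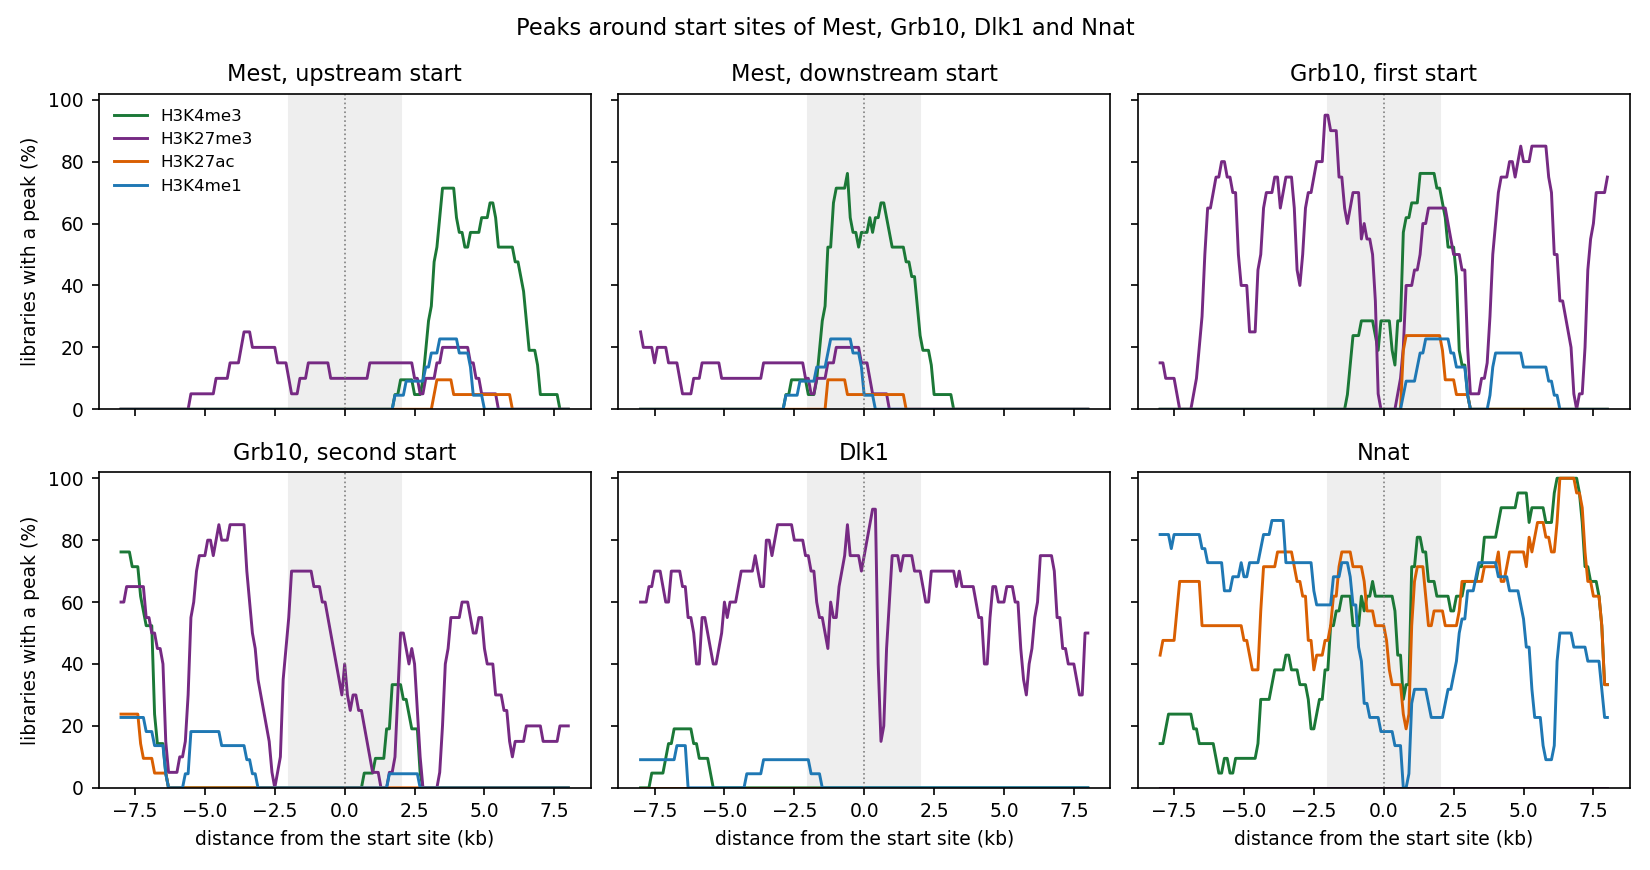
Percent of libraries of a mark with a peak at each position from -8 to 8 kb around 6 start sites, read in the direction of transcription; lines are the 4 marks and the grey band is the 2 kb on either side of the start. At the Grb10 first start H3K4me3 peaks at 1.3 kb downstream with 76.2% of libraries and H3K27me3 at 2.1 kb upstream with 95%, at Dlk1 only H3K27me3 covers the start (75%), and at Nnat H3K4me3 reaches 100% at 6.2 kb, beside the Blcap start.

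H3K4me3 and H3K27me3 were compared in 20 pairs of libraries of the same diet and replicate number, taken as the same fat depot. A mean of 2.00 ± 1.3 of the 10 promoters carried both marks (SD, n = 20 pairs, range 0 to 5), where 7.76% of all coding promoters did on average. Grb10 had both in 16 of 20 pairs, and it was the only one of the 10 with both in most pairs, against 4.45% of all coding promoters. Peg3 had both in 10 pairs, Mest in 6, Plagl1 in 3, Igf2 and Cdkn1c in 2 each and Peg10 in 1. Dlk1, Sgce and Nnat had both in 0 of 20.

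In 13 of the 16 Grb10 pairs the peaks of the 2 marks overlapped. Over all 16 pairs, those without overlap included, they shared 1088 bp at the median. The median share was 49.1% of the H3K4me3 and 28.5% of the H3K27me3 base pairs in the window. At Peg3 the shared stretch was 509 bp at the median over 10 pairs, and all of the H3K27me3 found there lay under H3K4me3 at the median. Shared base pairs in bulk nuclei do not tell whether the marks lay on the same allele or in the same nuclei.

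**Figure D3:**
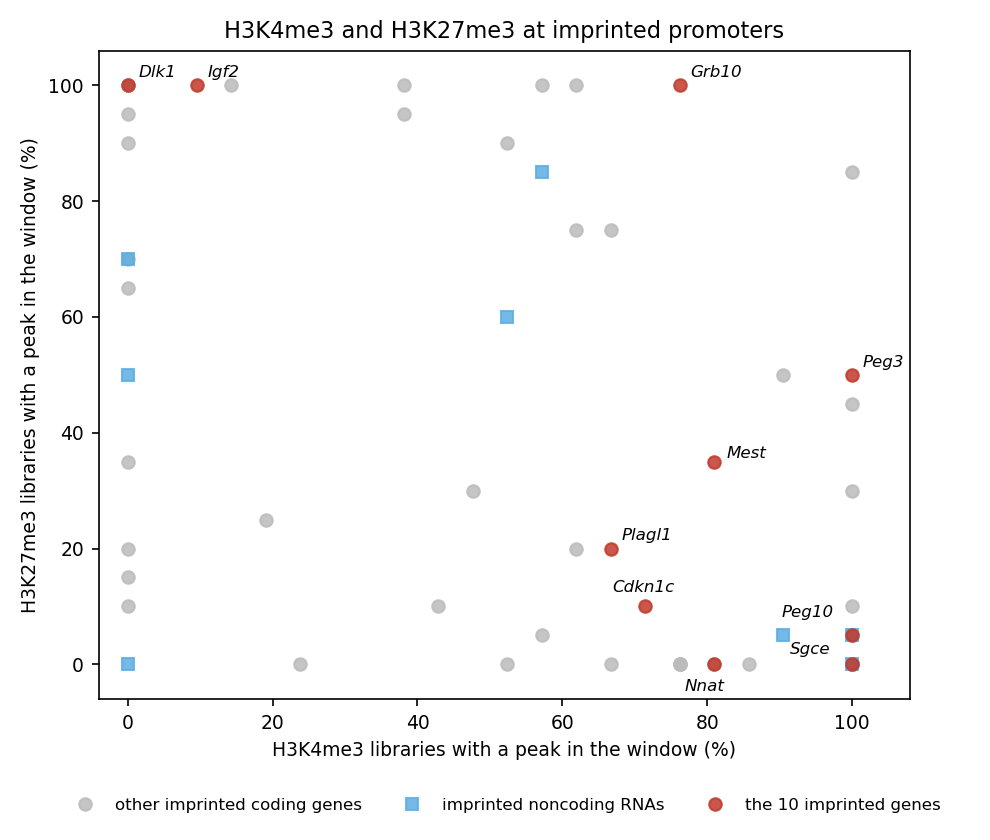
Percent of the 21 H3K4me3 libraries (x axis) and of the 20 H3K27me3 libraries (y axis) with a peak in the promoter window, for the 10 imprinted genes (red, named), 47 other imprinted coding genes (grey) and 8 imprinted noncoding RNAs (blue squares). Dlk1 and Igf2 sit at the top left, Peg10, Sgce and Nnat at the bottom right, and Grb10 at 76.2 and 100%.

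In obesity at 12 weeks, H3K4me3 narrowed at several of the promoters. Differences between diets were tested with limma on the percent of the window covered by peaks, over all promoters marked in at least 3 libraries, with Benjamini-Hochberg adjustment over all of them and a threshold of 0.05. For H3K4me3 this took in 8 of the 10 genes (not Igf2 and Dlk1). Against C, H showed lower coverage at Nnat, Plagl1, Peg10 and Sgce, 4 of 8, where 14.9% of all 14597 promoters tested were called lower in the same comparison. All 8 had a negative difference, as had 90.0% of all promoters. The median difference was -38.3 percentage points over the 8 and -16.9 over all promoters. In all, 2172 promoters were called lower and 4 higher. The paper tested read counts, and most of its changed H3K4me3 promoters in H and HC had more of the mark. Covered share and read count thus differed in direction over all promoters, and the reason was not tested. Without H replicate 3, or with the number of peaks per library as a covariate, Nnat was the 1 gene still called, and without CC_s replicate 3 the 4 calls became 8 over all contrasts. Markers of other cells moved in the same comparison: of 5 progenitor markers, 4 carried H3K4me3 in each C library and 0 to 4 in H, and of 4 mesothelial markers 1 to 2 in C and 0 in H. Macrophage markers went the other way, with a mean of 2 of 6 in C and 4 in H, and so by less did endothelial markers. The part of all these cells in the lower coverage was not tested. Fewer nuclei with the mark and less of it in each nucleus cannot be told apart in such bulk material.

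At Nnat, H3K4me3 covered 92.9, 91.0 and 91.2% of the window in the C libraries and 20.6, 14.7 and 0% in the H libraries. The groups did not overlap, and coverage fell by 80.0 percentage points (SE 15.7, limma adjusted p = 0.00677), a call that was lost on the log2 scale (adjusted p = 0.0698). This was the largest of the 8 differences in H. The peak itself was 6.35 to 7.10 kb wide in C, and in H 0.835 and 0.594 kb in replicates 1 and 2.

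The CC_s controls, which differed from C in age and in their chow, were not like C at this promoter. Nnat coverage was 5.08, 0 and 84.5% in CC_s and 0, 37.7 and 0% in HC, so 2 of 3 chow-fed CC_s libraries of 26 weeks were as low as the H libraries. In the 25-week cohort all 9 libraries lay between 63.6 and 100%. Over the 2 obesity comparisons together the difference was -47.8 points (SE 12.4) with a limma adjusted p = 0.0892, which missed the threshold.

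At Plagl1, coverage was 51.0, 45.5 and 59.4% in C and 0% in all 3 H libraries. It fell by 52.0 points (SE 11.9, limma adjusted p = 0.0124), and it was the only promoter of the 10 called lost by presence, marked in 3 of 3 C and 0 of 3 H libraries, where 1.71% of all coding promoters were lost. Without H replicate 3, which had 11249 peaks, the adjusted p was 0.0562. Here too the CC_s libraries were split, with 0, 0 and 54.2%, and HC had 33.9, 0 and 0%. CC_l, HH, CCC and HHC libraries were marked in 9 of 9, with 41.7 to 75.3% covered.

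At the shared promoter of Peg10 and Sgce, Peg10 coverage was 76.4, 91.3 and 93.7% in C and 73.4, 25.5 and 8.14% in H. The H libraries were spread widely, with the highest of them close to the lowest of C. Peg10 fell by 51.5 points (SE 15.7, limma adjusted p = 0.0364) and Sgce fell by 51.6 points (SE 15.8, adjusted p = 0.0371). These calls were lost without H replicate 3, where the adjusted p was 0.217 for Peg10 and 0.221 for Sgce. They were also lost with the number of peaks per library as a covariate, with adjusted p = 0.272 and 0.277.

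Peg3 and Grb10 came close to the threshold in the same comparison. Peg3 coverage was 54.6, 62.2 and 53.5% in C and 43.6, 39.5 and 11.8% in H, a difference of -25.1 points (SE 8.58, limma adjusted p = 0.0531). Grb10 coverage was 11.4, 28 and 26.6% in C and 0, 7.31 and 0% in H, a difference of -19.6 points (SE 6.59, limma adjusted p = 0.0507). When only the best covered start site of Grb10 was used, the difference was -54.5 points with a limma adjusted p of 0.0142.

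**Figure D4:**
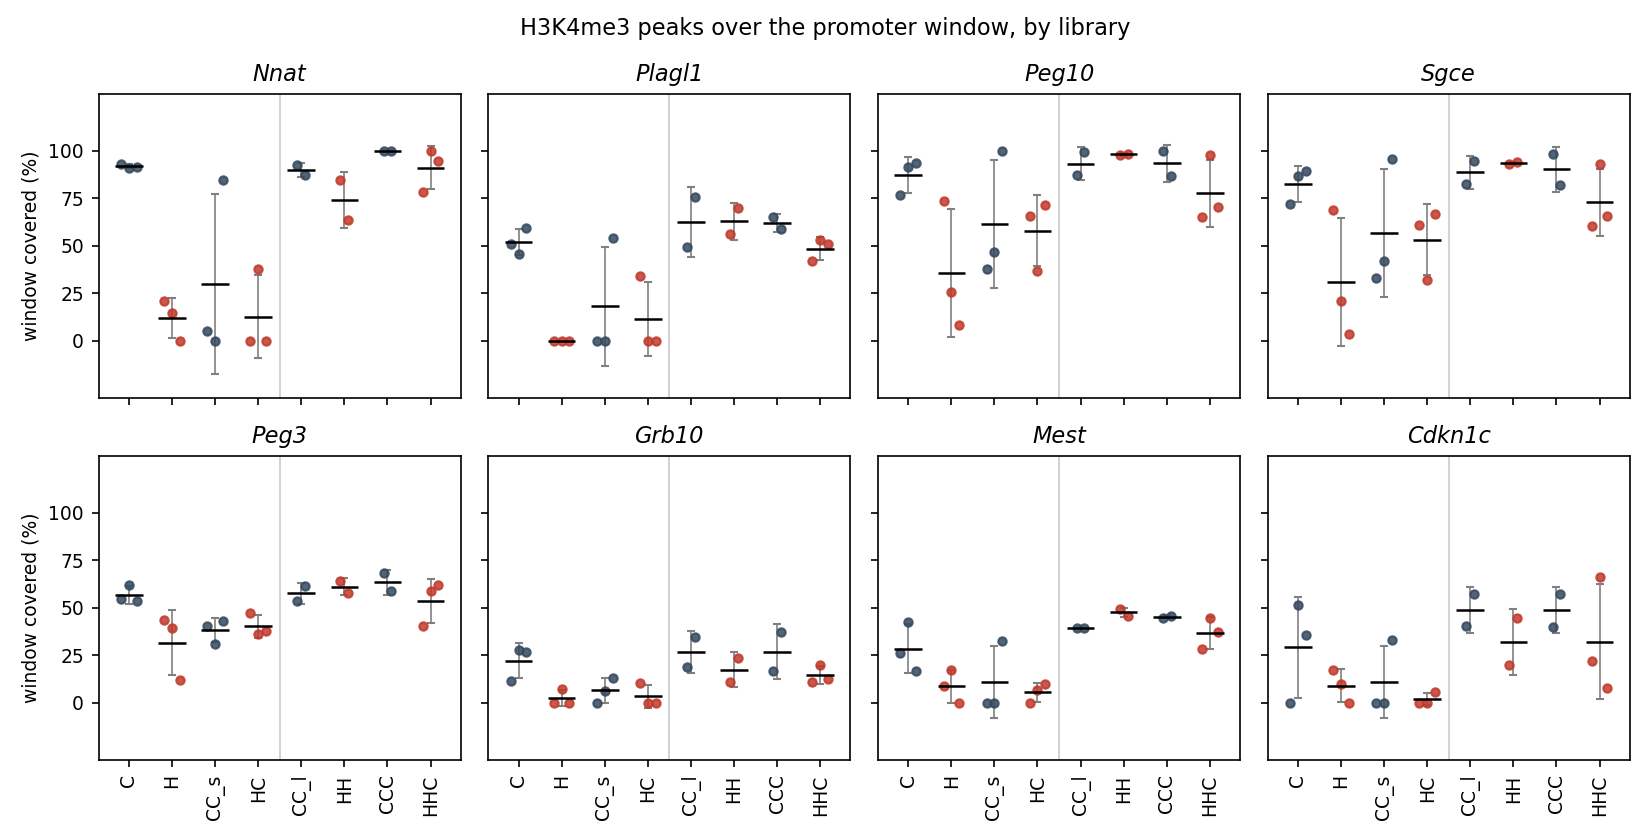
Percent of the promoter window covered by H3K4me3 peaks in each of 21 libraries (points) at 8 imprinted genes, by diet group; black lines are group means, grey bars the SD, red points the groups with high-fat diet in their history and dark points the chow-fed controls. The C libraries of Nnat lie at 91.0 to 92.9% and the H libraries at 0 to 20.6%, and 1 CC_s library stands apart from the other 2 at Nnat, Plagl1, Peg10, Sgce, Mest and Cdkn1c.

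The same promoters did not pass the test in the other H3K4me3 comparisons. HC against CC_s, HH against CC_l, HHC against CCC and the 2 pooled comparisons gave 0 calls among the 8 genes by limma, with 0, 0, 0, 3 and 0 of them at an unadjusted limma p under 0.05. Over all promoters 1.59% of the tests in these 5 comparisons were called. An exact permutation test of the 2 pooled comparisons also gave 0 calls, here with 120 and 200 permutations, but its smallest possible p (0.01667 and 0.005) left it hardly able to pass the threshold after adjustment over all promoters. HHC was below CCC at 8 of 8 genes, with a median of -12.9 points, where the median over all promoters was 3.60. In HH against CC_l the median was 1.94 points over the 8 genes and 7.88 over all. Whether the obesity difference at 25 weeks differed from that at 12 weeks was tested as a contrast added after the data were seen. It was above 0 at 8 of 8 genes, and it was below 0 at only 5.06% of all promoters. The contrast was 64.4 points (SE 24.9) at Nnat and 52.4 (SE 18.9) at Plagl1, but with limma adjusted p = 0.0964 and 0.0843 it did not pass. Over the 4 marks, 0 of 52 such tests at the genes were called by limma and 6 had an unadjusted p under 0.05, beside 1.03% called over all promoters. The median of that contrast was 40.5 points over the 8 genes and 26.7 over all promoters.

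H3K27me3 narrowed at Dlk1 and Igf2 in the 12-week cohort. In H against C these were 2 of the 6 genes tested, where 5.62% of all 6730 promoters tested were called lower. Cdkn1c, Peg10, Sgce and Nnat were marked in too few libraries to be tested. Both promoters stayed marked, with a peak in the window in 20 of 20 libraries. The difference was in how much of the window was covered.

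At Dlk1, H3K27me3 covered 69.7, 92.0 and 90.6% of the window in C and 15.9 and 8.71% in the 2 H libraries. The groups were far apart, and coverage fell by 71.8 points (SE 17.3, limma adjusted p = 0.0243). The widest Dlk1 peak was 4.98, 4.71 and 5.68 kb in C and 0.767 and 0.419 kb in H, and its signal percentile within the library was 92.3 to 96.0 in C and 70.5 to 76.2 in H. By that percentile the difference was -21.3 with a limma adjusted p of 0.161. Without H replicate 1 the adjusted p for coverage was 0.173, without H replicate 2 it was 0.166, and without C replicate 2 or 3 it was 0.0726 or 0.0697.

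After weight loss, Dlk1 coverage was 56.5, 10.8 and 11.3% in HC and 75.1, 75.9 and 93.8% in CC_s. The 3 HC libraries were below the 3 CC_s libraries, and coverage fell by 55.4 points (SE 15.4, limma adjusted p = 0.0425), where 5.36% of all promoters were called lower. HC replicates 2 and 3 were low and replicate 1 was not, and the call was lost without HC replicate 2 (adjusted p = 0.208) or 3 (0.126), and without CC_s replicate 1 (0.0767), 2 (0.0893) or 3 (0.177). Leaving out 1 library of C, H or CC_l could also lift the adjusted p over the threshold, to 0.055 at the highest. The H3K27me3 peaks of HC were narrow as well, with a library median of 332 to 914 bp against 1097 to 1175 bp in CC_s.

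In the 25-week cohort Dlk1 coverage overlapped between diets. It was 95.2 and 95.9% in CC_l, 100 and 53.3% in HH, 100 and 70.8% in CCC, and 94.7, 73.1 and 42.8% in HHC. The pooled obesity difference was -45.3 points (SE 12.8, limma adjusted p = 0.0679) and the pooled weight-loss difference -35.3 points (SE 11.6, limma adjusted p = 0.0872).

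At Igf2, coverage was 78.4, 76.1 and 81.1% in C and 35 and 27.6% in H. It fell by 47.2 points (SE 13.5, limma adjusted p = 0.0454). This was close to the threshold, and the adjusted p was over it in 12 of the 20 fits that left out 1 library, up to 0.268. The call was also lost in 5 of 10 other alternatives, among them the signal percentile (limma adjusted p = 0.593), a 5000 bp window (0.0807) and a replicate block (0.0699). In HC it was 25.0, 11.7 and 54.0%, all below the 77.7, 66.1 and 61.2% of CC_s, a difference of -38.1 points (SE 12.1, limma adjusted p = 0.0674). The 9 libraries of the 25-week cohort lay between 54.9 and 98.2%.

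**Figure D5:**
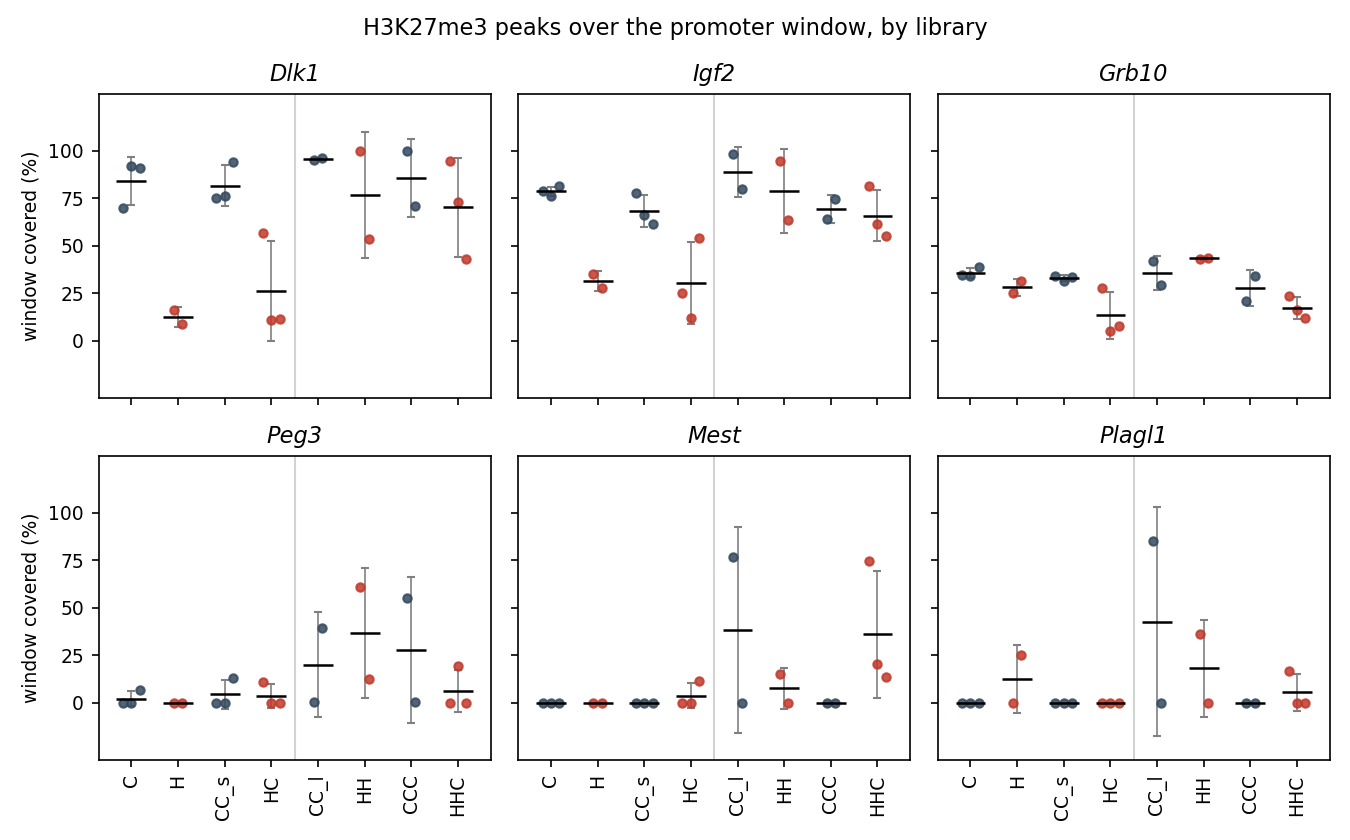
Percent of the promoter window covered by H3K27me3 peaks in each of 20 libraries (points) at 6 imprinted genes, by diet group; lines are means, grey bars the SD, red points groups with high-fat diet in their history. At Dlk1 the 2 H libraries lie at 8.71 and 15.9% and the 3 C libraries at 69.7 to 92.0%, while Grb10 stays between 4.93 and 43.7%.

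In the other 4 H3K27me3 comparisons limma called 0 of the 6 genes, with 4 tests at an unadjusted p under 0.05, where 1.78% of all tests were called. Grb10 kept H3K27me3 in every library, with 34.3, 33.7 and 38.6% of its window covered in C and 24.8 and 31.1% in H. No Grb10 comparison of this mark was called. In HC the coverage was 27.6, 4.93 and 7.55%, against 33.8, 31.2 and 33.6% in CC_s. At Mest, H3K27me3 was found in 3 of 3 HHC libraries, with 74.5, 20.2 and 13.5% of the window, and in 0 of 2 CCC libraries, which made it the single gained promoter of this mark among the 10, where 1.37% of all coding promoters were gained. Taken apart, the upstream and the downstream start of Mest each had the mark in 2 of 3 HHC libraries, so the gain holds only for the 2 windows together. CC_l replicate 1 carried H3K27me3 at Mest too, over 76.8% of the window, so the chow-fed groups were not free of it. Of 7 adipocyte markers, HHC libraries also marked 2 to 5 with H3K27me3 and CCC libraries 1. What this means for Mest was not tested.

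For H3K27ac and H3K4me1 limma called 0 of the genes tested. The permutation test of the 2 pooled comparisons also called 0, with the same limit. The tests covered 5 genes for H3K27ac, with 5 of 30 gene and contrast pairs at an unadjusted p under 0.05, and 7 genes for H3K4me1, with 8 of 42. Over all promoters 1.65% of the H3K27ac and 3.98% of the H3K4me1 tests were called. The lowest p of these marks was at Grb10, where H3K27ac covered 19.4 and 24.4% in CC_l and 0, 0 and 1.24% in HH, a difference of -21.5 points (SE 7.58, limma adjusted p = 0.515).

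By presence, 2 promoters changed in H3K4me1 and 0 in H3K27ac, where 1.53% of all coding promoters were gained or lost per comparison. H3K4me1 was gained at Mest in HH, with 10.9, 18.1 and 23.2% covered in 3 of 3 HH libraries and 0 of 2 CC_l libraries marked, where 2% of all coding promoters were gained. It was lost at Plagl1 in HHC, with 20.2 and 14.5% covered in the 2 CCC libraries and 0 of 3 HHC libraries marked, where 0.494% were lost. With 2 control libraries, a change of 1 library decides such a call. At Nnat the enhancer and acetyl marks were split within groups: H3K27ac covered 0, 100 and 100% of the window in HH, and 98.3, 100 and 0% in HHC.

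Other imprinted genes were counted from a list of 48, of which 47 were found. In H against C, H3K4me3 was called lower at 10 and higher at 0 of the 37 tested, beside 14.9% lower over all promoters. Among them were Snurf and Snrpn, which share a promoter region, and Ndn, with differences of -50.8, -25.4 and -13.9 points. H3K27me3 was called lower in H at Kcnq1 and Kcnk9, 2 of 24 tested, beside 5.62% lower over all promoters. In HC it was called lower at 1 of 24, beside 5.36% over all promoters. This was Dio3, at the far end of the Dlk1 domain, with a difference of -46.1 points (SE 10.6, limma adjusted p = 0.0197). Tspan32, beside the Kcnq1 and Cdkn1c cluster, was called higher in 3 marks in HHC against CCC, with 54.4 points for H3K4me3, 67.8 for H3K27ac and 86.1 for H3K4me1. Axl was called higher in 2 of these, with 42.8 points for H3K4me3 and 53.8 for H3K27ac. These were 2 of 37, 2 of 22 and 1 of 26 listed genes tested. Over all promoters 3.01, 5.89 and 12.9% were called higher for the 3 marks. In the same comparison 6 of 6 macrophage markers carried H3K4me3 in every HHC library, against 1 to 3 in CCC, and 2 to 6 against 0 to 2 carried H3K27ac. The part of these cells in the Tspan32 and Axl differences was not tested.

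The noncoding RNAs at control regions were marked like the H3K4me3 group. Kcnq1ot1, whose start lies in the control region of the Cdkn1c cluster, and Peg13 carried H3K4me3 in 21 of 21 libraries and Airn in 19, while 0, 1 and 1 of 20 had H3K27me3. H19, the neighbour of Igf2, was marked by H3K4me3 in 12 of 21 and by H3K27me3 in 17 of 20. At H19 the latter was lost in H, 0 of 2 against 3 of 3 in C, where 1.61% of all coding promoters lost it. Meg3, in the Dlk1 domain, lacked H3K4me3 in all 21 and was marked by H3K27me3 in 10 of 20. Of the 47 other imprinted coding genes, 5 carried both marks in more than 10 of the 20 pairs, as Grb10 did, beside 4.45% of all coding promoters. They were Begain, Zim1, Gnas, Ascl2 and Asb4.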

How the data were processed

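The authors tagged chromatin with antibodies to H3K4me3, H3K27me3, H3K27ac and H3K4me1 (CUT&Tag) and deposited 1 peak list per library, 84 in all, with the total and the highest signal of each peak as a coverage sum. Per the submitters' processing notes, reads were handled with Trim Galore 0.6.6, Bowtie2 2.4.4, SAMtools 1.13 and bedtools 2.30 on mm10, and peaks were called with SEACR 1.3. Peaks were called per library in stringent mode with a threshold of 0.01, which keeps the top 1% of signal blocks, so peak number and width move with each library's signal. Read depth per library is not given in the sources used here, so no interval or detection limit was computed.

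From these lists the covered base pairs of each promoter window (2000 bp either side of 41438 coding start sites of 21851 genes, GENCODE GRCm38 basic set) were summed, start sites of a gene within 500 bp being merged for description. The percent covered was fitted with limma 3.58.1 in R 4.3.3, with the 8 diet groups of a mark sharing 1 estimate of the spread, on promoters marked in at least 3 libraries. There were 6 contrasts per mark, Benjamini-Hochberg adjustment ran over all promoters of a contrast, and 2 contrasts of the difference between cohorts were added after the data were seen. A promoter was called gained or lost when all libraries of a diet group and none of its control were marked, or the reverse. The fit was checked on simulated data.

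All 10 genes are named with their values, and a test is printed where it was called or had an unadjusted p under 0.01. The members and lists (48 further imprinted coding genes, 8 imprinted noncoding RNAs, cell type markers) were chosen with earlier results of these data known. Of 4 endothelial markers, C libraries marked a mean of 2.33 and H libraries 2.67 with H3K4me3, and of 3 lymphocyte markers 0 and 0. Groups follow the sample titles, and p-values measure the spread between libraries labelled as replicates. No 2 peak lists were identical. Lists with a peak on the mitochondrial genome and in a high-signal region of chromosome 2 numbered 84 of 84, so such regions had not been removed. Promoter sequences are from RefSeq, GRCm38.p6. The alternatives tried were other windows, overlaps, scales, filters and groupings, equal peak numbers, a peak-number covariate, a replicate block, an exact permutation test and leaving out each library.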

Additional observations from a re-analysis of the deposited data

Results flagged for a closer look

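At Grb10, H3K27me3 coverage moved in opposite directions with obesity in the 2 cohorts, with all libraries of a group on the same side. At 12 weeks both H libraries (24.8 and 31.1%) lay below the 3 C libraries (33.7 to 38.6%), a difference in means of -7.61 percentage points. At 25 weeks both HH libraries (42.7 and 43.7%) lay above the 2 CC_l libraries (29.2 and 41.7%), a difference of 7.74 points. The 25-week minus the 12-week difference was 15.3 points (SE 17.7). Tested as a contrast added after the data were seen, it had a limma adjusted p = 0.797 and was not called. That p rests on a spread shared by the 8 diet groups, not on the groups compared here alone.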

How the results depend on the processing

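Of 515 recomputed counts and means under the alternatives, 423 stayed near the reported value and 92 moved, and no direction reversed. The reported number of limma calls at the 10 genes was 4 for H3K4me3, 3 for H3K27me3 and 0 for H3K27ac and H3K4me1, over 6 contrasts each. For H3K4me3 it was 1 with peak number as a covariate. For H3K27me3 it was 1 with an equal number of peaks per library, 5 with the best start site only, 0 with the signal percentile and 1 without the filter on low presence. For H3K27ac it was 1 on the log2 scale, and for H3K4me1 it was 2 with a 5000 bp window and 1 each with equal peaks, the log2 scale and the signal percentile. The exact permutation test, run for the 2 pooled contrasts, called 0 of the genes and 0 of all promoters for each mark, with 0.015 as the smallest unadjusted p at the genes (Grb10 H3K27me3, weight loss). With 60 to 200 permutations per contrast this test could hardly pass the threshold after adjustment, so its 0 calls say little. Here 1 library often decided a call: leaving out 1 library gave 1 to 8 calls for H3K4me3, 0 to 5 for H3K27me3, 0 to 2 for H3K27ac and 0 to 5 for H3K4me1. H3K4me3 had 1 call without H replicate 3, 2 without C replicate 2 or 3, and 8 without CC_s replicate 3. H3K27me3 had 0 without C replicate 2 or 3 or H replicate 1 or 2, 1 without any CC_s replicate or CC_l replicate 1, and 5 without HC replicate 1. H3K27ac had 2 without CCC replicate 3, and H3K4me1 had 5 without HHC replicate 2. The Nnat call in H3K4me3 was kept in all 21 omissions and lost on the log2 scale (adjusted p = 0.0698).

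Over all promoters, 3333 H3K4me3 calls became 2159 with groups from the treatment field, 1966 on the log2 scale, 1646 with the signal percentile and 1439 with the covariate. For H3K27me3, 1221 became 623 with the percentile. For H3K27ac, 1251 became 2202 with a 5000 bp window, 630 with equal peaks, 103 with the percentile and 543 with the covariate. For H3K4me1, 2685 became 4156, 1278, 1574 and 1687 in the same order. Omitting 1 library gave 1417 to 4135, 534 to 2254, 473 to 10783 and 1949 to 5089 calls for the 4 marks. Gained or lost promoters among the 10 numbered 4 with equal peaks for H3K4me3 (reported 1), 3 with a 5000 bp window and 0 with the best start site for H3K27me3 (reported 1), 1 with a 1000 bp window and 2 with at least 200 bp covered for H3K27ac (reported 0), and 0, 4 and 1 with 1000 bp, 5000 bp and equal peaks for H3K4me1 (reported 2). Over omissions they were 1 to 2, 1 to 2, 0 to 3 and 2 to 5. With equal peak numbers a library marked 4.38 of the 10 genes with H3K4me3, 1.71 with H3K27ac and 0.700 with both H3K4me3 and H3K27me3. Omissions gave 6.75 to 7.05, 4.05 to 4.26, 3.55 to 3.80 and 2.43 to 2.76 genes per library, and 1.84 to 2.11 with both. The cause of these shifts was not tested.

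Libraries with the same replicate number did not deviate together (mean r of -0.0151 for H3K4me3 and -0.0085 for H3K27me3), so the numbers do not pair them. With the replicate block there were 3 calls at the genes for H3K4me3 and 2 for H3K27me3, where Grb10 H3K4me3 passed (adjusted p = 0.0491) and Peg10 (0.0506), Sgce (0.0514) and Igf2 (0.0699) did not.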
